A study of Mus musculus with 2 samples.

Results

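The junctions described here join exons that lie at least 50000 nucleotides apart in the genome, and were found by spliced reads in adult mouse heart. They were chosen from the authors' pooled junction table on the mm9 build as rows with an intron of at least 50000 nucleotides and at least 20 reads. The rule took 1509 of 362268 junctions, which is 1.55% of the 97337 junctions with at least 20 reads. Length and read number chose them, so both are given as descriptions and neither was tested. A host gene could be named for 919 of them, in 656 genes, and the other 590 are described by where their ends lie.

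The RNA came from whole hearts of adult mice, 8 weeks old, of the inbred strain C57BL/6J, and no treatment or altered allele is named. The labels give 1 group of 2 libraries of poly(A) RNA longer than 200 nucleotides, read as stranded pairs of 76 nucleotides. They call the libraries biological replicates from littermates of both sexes, with separate biosamples and 1 shared donor record. The sex-linked genes went against the label of pooled males and females. Xist, which silences an X chromosome in female cells, was counted 13725 times in replicate 1 but 13 times in replicate 2. The sum over 4 genes of the Y chromosome was 0 in the former and 2916 in the latter. Values of both libraries are given wherever the files separate them. Gene counts summed to 56516005 in replicate 1 and 61827329 in replicate 2. Levels are in TPM, which corrects counts for transcript length and library size. Markers of cardiomyocytes summed to 24612 and 29032 TPM, and Actc1, the cardiac actin, stood at 14525 and 13049 TPM. Among these markers Tnni3 stood at 4631 and 11030 TPM and Tnnt2 at 1628 and 1797. Myh6, Pln and Ryr2 were, like Actc1, lower in replicate 2. Erythroid markers summed to 3496 and 43425 TPM and airway epithelium markers to 0.27 and 1916 TPM, while the endothelial, fibroblast, smooth muscle and neuronal sums lay within 128 to 130, 306 to 314, 414 to 467 and 7.81 to 8.96 TPM.

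Introns are copied into the primary transcript and cut out by the spliceosome, which must pair a donor site at one end with an acceptor site at the other. Where the intron is very long, the polymerase works for a long time between transcribing one site and the other. Genes of muscle and nerve, dystrophin among them, are known for such introns, and the first intron of a gene is often its longest. A spliced read holds the end of one exon and the start of the next, so the letters below do not occur side by side in the genome.

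The exon joins that carry the main findings are shown first, as GENCODE M21 transcripts of the host gene give them, with positions of the intron from the mm9 junction table. In each, the last 15 nucleotides of the upstream exon are in lower case and the first 15 of the downstream exon in capitals, written 5′ to 3′ along the gene's own strand. The first set holds the 5 junctions with a host gene that had the most reads.
Igfbp7, chr5:77784697-77836564, minus strand: gcacctgcgagcaagGTCCTTCCATAGTGA
Macrod1, chr19:7140694-7260065, plus strand: ccattgtcaacgctgCCAACAGCTCCCTGC
Cd36, chr5:17341490-17394528, minus strand: ctgttctagaagttgCTGCCTTCTGAAATG
Trdn, chr10:32803552-32858879, plus strand: agatcactgctgaagGAAATGCATCGACAA
App, chr16:85120943-85173746, minus strand: gttcgggctctggagGTACCCACTGATGGC
The second set holds the 3 longest introns with a host gene, followed by an Ank2 and a Cd36 junction that each share an end with one already shown.
Kcnd2, chr6:21167414-21664134, plus strand: catgacaacactgggGTATGGCGACATGGT
Ctnna3, chr10:63315574-63713445, plus strand: gagtacatgagtaatACTGGAAAAACAGAA
Ank2, chr3:126807781-127201585, minus strand: ccgcggatccgtcagTCTGACAGCAATGCC
Ank2, chr3:126807781-126951051, minus strand: catcccgatgaccagTCTGACAGCAATGCC
Cd36, chr5:17335368-17394528, minus strand: ctgttctagaagttgGTAGTTTACAAATGA
The 2 Ank2 joins had different upstream exons and the same downstream exon. The second Cd36 join had the upstream exon of the first set and another downstream exon.

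The third set shows exon joins of junctions whose ends lay in 2 neighbouring, similar genes, each given as the donor gene and the acceptor gene spell it.
Selenbp2 for chr3:94501027-94741129, plus strand: ccccagtatagccagGTCATCCACAGGTTG
Selenbp1 for the same junction: ccccagtatagccagGTCATCCACAGGTTG
5830417I10Rik for chr3:88612565-88693592, plus strand: accagagtatttcttAAAGAGCTGGGCACC
Gon4l for the same junction: accagaatatttcttAAAGAGCTGGGCACC
Gstm4 for chr3:107789028-107847554, minus strand: tgggacatccgtgggCTAGCTCACGCTATT
Gstm2 for the same junction: tgggacatccgtgggCTGGCTCACGCCATC
The Selenbp2 and Selenbp1 lines were identical. The 5830417I10Rik and Gon4l lines differed at 1 letter, and the Gstm4 and Gstm2 lines at more than 1.

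Intron length ran from 50017 nucleotides through a median of 81326 to 642837. Of the 1509 junctions, 578 spanned at least 100000 nucleotides and 192 at least 200000. Reads per junction ran from 20 through a median of 53 to 5296, with 425 junctions at 100 reads or more and 13 at 1000 or more. Together they held 171733 reads, or 0.503% of the reads of all junctions with at least 20. The strands carried 800 and 709 of them. The 5 shortest junctions inside the length limit spanned 50017 to 50136 nucleotides and the 5 longest outside it 49880 to 49979. There were 41 junctions at exactly 20 reads and 76 junctions of the same length class at 19. Without the limit on reads, 67216 junctions spanned at least 50000 nucleotides, of which 54264 (80.7%) had a single read.

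The name of each junction carries numbers marked A and C, each 0 or 1. What they mean is not stated in the labels or the files. A=1 with C=1 stood in 904 of the long-intron junctions (59.9%), against 94.8% of shorter junctions with at least 20 reads. A=0 with C=1 stood in 463 (30.7%, against 3.62%) and A=0 with C=0 in 142 (9.41%, against 1.28%). No long-intron junction had A=1 with C=0. The share with A=1 was 96.1% for introns of 1000 to 5000 nucleotides and 85.5% for 20000 to 50000. It was 72.7% for 50000 to 100000 nucleotides, 51.0% for 100000 to 200000 and 15.6% (30 of 192) above that. The longest introns were thus mostly of A=0. Junctions with A=1 almost all had an annotated intron of the same length, 881 of 904 in exactly 1 gene (97.5%), against 36 of the 463 with A=0 and C=1 and 2 of the 142 with neither.

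**Figure D1:**
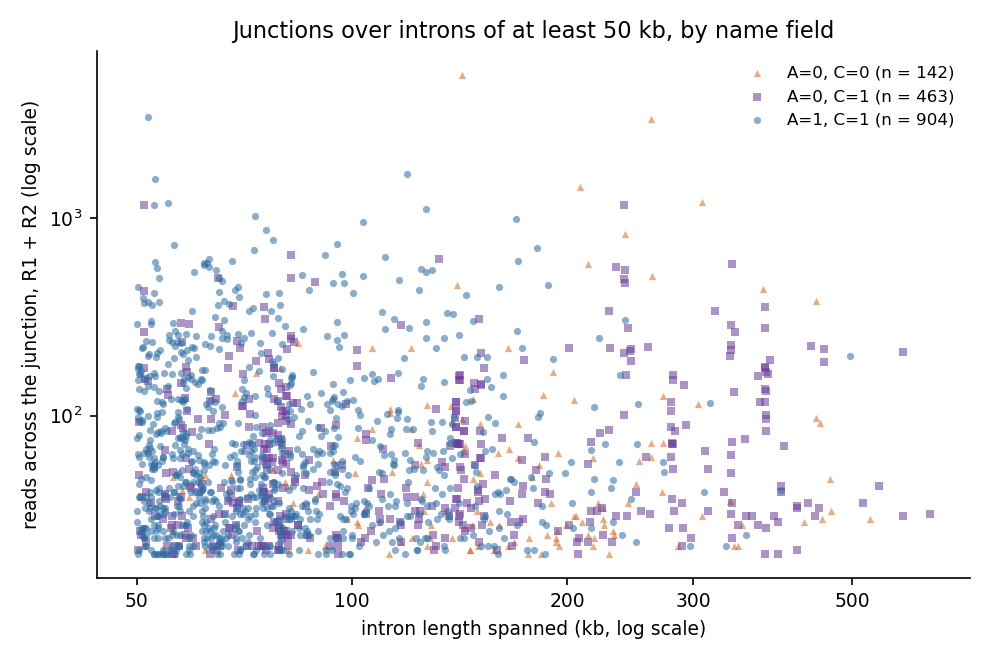
Reads across each of the 1509 junctions (R1 and R2 together, log scale) against the length of the intron it spans (kb, log scale), by the A and C numbers of its name. Junctions with A=1 crowd below 100 kb, and most points at 200 kb or more have A=0.

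**Figure D2:**
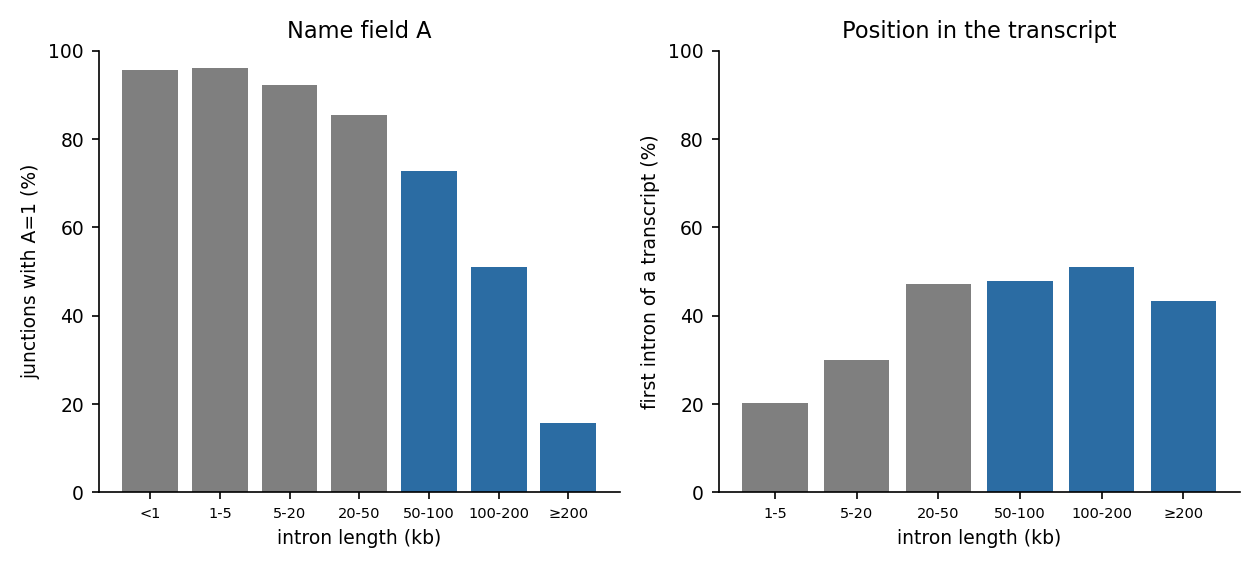
Bars give, by intron length in kb, the percent of junctions with at least 20 reads that have A=1 (left) and the percent of junctions with A=1 and a host gene that are the first intron of a transcript (right), with lengths of at least 50 kb in blue. The share with A=1 falls to 15.6% at 200 kb or more, and the share of first introns is 20.3% at 1 to 5 kb and 43.3% to 51.0% in the 3 longest classes.

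Chromosome 17 held the most long-intron junctions, 139 (9.21%, against 5.29% of all junctions with at least 20 reads). Only 37 of the 139 had A=1. Chromosome 1 held 116 (7.69%, against 5.77%) and chromosome 2 held 113 (7.49%, against 8.30%). Chromosome 6 held 105 (6.96%, against 4.65%) and chromosome 12 held 104 (6.89%, against 3.55%). Of these 5, chromosome 2 alone lay below its share of all such junctions. With A=1 alone the order changed, and chromosome 6 led with 75 and chromosome 2 followed with 72. The X chromosome held 33, of which 29 had A=1, and none lay on the Y chromosome or the mitochondrial genome.

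Host genes were named without converting coordinates, by an intron of exactly the same length on the same chromosome and strand in 1 gene of GENCODE M21. The match found 1 gene for 919 junctions (60.9%), more than 1 for 8 and none for 582. When lengths were shifted by 1 to 10 nucleotides either way, 1 to 10 junctions matched, with a mean of 3.8 over 20 shifts. The matched junctions lay in the same order along the chromosome in both builds for all 887 neighbouring pairs. Of the 656 host genes 649 were protein-coding, and 486 hosted 1 junction.

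The median level of the host genes was 6.72 TPM in replicate 1 and 7.30 in replicate 2 (mean 7.01 ± 0.410 SD, n = 2), and the genes at 1 TPM or more had medians of 6.49 and 7.28. The first set was chosen through junction reads and the second by level, so the medians are given side by side without a comparison. Host levels ran from 0.175 to 1044 TPM as means of both libraries, with 636 of 655 at 1 TPM or more, 243 at 10 or more and 10 at 100 or more. The annotation held 6337 introns of at least 50000 nucleotides in 2764 genes. Junctions with 20 reads were found for 21 of 2955 such introns in genes below 1 TPM (0.711%), 527 of 2102 at 1 to 10 TPM (25.1%) and 359 of 821 at 10 to 100 TPM (43.7%). At 100 TPM or more it was 11 of 24 (45.8%).

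Fhl2, which encodes a LIM-domain protein of the heart sarcomere, had the highest level of the host genes. It stood at 1105 and 983 TPM, yet its junction over 54778 nucleotides had only 43 reads in R1 and 24 in R2. The transcripts with that intron held 0.793% and 1.46% of the gene's TPM in replicates 1 and 2. Kcnd2, a potassium channel of the transient outward current, showed the reverse layout. Its first intron of 496721 nucleotides took up 96.6% of the gene, all of the gene's TPM lay in transcripts with it, and 106 and 95 reads crossed it at a gene level of 6.32 and 4.31 TPM. A junction took up a median of 35.8% of its gene, and 275 of the 919 took up more than 50% of it.

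The 10 junctions with a host gene and most reads lay in 9 genes. Igfbp7, a secreted protein that binds insulin-like growth factors, led with 2176 reads in R1 and 1056 in R2 across its first intron of 51868 nucleotides, at gene levels of 119 and 186 TPM. R1 and R2 are the 2 sets of reads marked in the junction names, and the sources do not say which library each is, so they were assigned to neither. Their numbers need not match those of the replicates. Cyp2a5 stood at 0.23 TPM in replicate 1 and 18.93 in replicate 2, while a junction starting in it had 68 reads in R1 and 0 in R2. Ctnna3 stood at 6.51 and 3.42 TPM, and its 8 junctions had more reads in R2. How far this holds for other genes was not tested. After Igfbp7 came Macrod1, a mitochondrial ADP-ribose hydrolase, with 1044 and 619 reads over an intron of 119372 nucleotides. Cd36, the fatty acid transporter of heart muscle, had 621 and 946 reads over 53039 nucleotides in its 5′ UTR. App, the amyloid precursor protein, had 857 and 310 over its first intron of 52804 nucleotides. Cdh13, an adhesion receptor anchored in the membrane by lipid, placed 2 junctions here, with 622 and 488 reads over 126991 nucleotides and 591 and 398 over 169302. Cpe, a carboxypeptidase of prohormones, had 535 and 488, Me3, a mitochondrial malic enzyme, 590 and 367, and Parm1, a membrane mucin, 510 and 357.

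Trdn, which encodes triadin of the calcium release complex, had 479 and 705 reads over its first intron of 55328 nucleotides. Its second intron had 479 and 749 reads. Further along, intron 4 had 64 reads in all, intron 8 had 48, intron 36 had 28 and intron 37 had 117. The first 2 introns thus had far more reads than those further along. The other 21 matched junctions of Trdn had a median of 4 reads, and the ratio of the first intron to it, 296.0, was the highest of the 617 junctions with such a ratio. Cacnb2, a calcium channel subunit, followed with 178 reads over an intron of 50463 nucleotides against a median of 3.0 over 5 others (ratio 59.3). Pacsin2, a membrane-bending protein, had the lowest ratio, with 39 reads against a median of 481.0 (0.0811).

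For 617 junctions in 430 genes with at least 5 other matched junctions, the ratio to the median of those others was 1.17 at the median, with quartiles of 0.653 and 2.04. It lay between 0.5 and 2 for 360, below for 99 and above for 158. Junctions of first introns had a median ratio of 1.06 (n = 251) and later ones 1.27 (n = 366). Each long-intron junction had to pass 20 reads and the junctions it was set against did not, which raises these ratios, so they are a description of the junctions chosen.

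Among the 10 longest junctions with a host gene, Kcnd2 was followed by Ctnna3, which encodes the catenin αT of cardiac cell contacts, with 11 and 31 reads over 397872 nucleotides. Ank2, which encodes ankyrin-B of the T-tubules, had 9 and 20 over 393805. Lsamp, a neural adhesion protein, had 14 and 11 over 355383, and Negr1, of the same family, 11 and 11 over 297084, at gene levels of only 0.63 and 0.60 and of 0.45 and 0.52 TPM. Fgf12 and Fgf13, intracellular partners of sodium channels, had 41 and 35 over 354445 and 68 and 48 over 316173. Rgs6, a brake on G-protein signals, had 3 and 19 over 333382, and Smyd3, a methyltransferase, 32 and 9 over 310880. Slit3, a guidance ligand, had 20 and 32 over 273314. Apart from Kcnd2 and Fgf13, each of these junctions had fewer than 100 reads.

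The first intron was common. Of the 919 junctions with a host gene, 450 (49.0%) were the first intron of at least 1 annotated transcript. Taking only the transcript of highest TPM that holds the intron, it was 384 (41.8%), and 186 more were second introns. Shorter junctions were compared among those with A=1 alone. There 427 of 881 long-intron junctions were first introns of a transcript (48.5%), against 25.5% of 28828 shorter ones, and with the transcript of highest TPM it was 41.1% against 15.8%. By length, again with A=1, the share was 20.3% at 1000 to 5000 nucleotides and 47.2% at 20000 to 50000. At 50000 to 100000 it was 47.9%, at 100000 to 200000 51.0%, and at 200000 or more 43.3% of only 30 junctions. The classes of 20000 nucleotides and more thus lay close together, all above the shortest. Of all 919, 702 (76.4%) lay in the coding part, 160 (17.4%) in the 5′ UTR, 8 in the 3′ UTR and 49 in non-coding transcripts.

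Ctnna3 hosted 8 of the junctions, the most of any gene, and together they spanned 1281615 nucleotides of a gene of 1573570. They were introns 5, 7, 9, 10, 11, 12, 13 and 15 of 17, with 25, 42, 56, 43, 119, 88, 92 and 72 reads. The gene stood at 6.51 TPM in replicate 1 and 3.42 in replicate 2. Every one of the 8 had more reads in R2 than in R1, although R2 is the smaller set.

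Cdh13 hosted 7, introns 1 to 7 of 13, so that the first 7 splices of its main transcript all crossed at least 82141 nucleotides. In that order they had 248, 989, 147, 145, 486, 1110 and 508 reads. Introns 2 and 6 stood highest, and introns 3 and 4 had the fewest. Its shorter introns 9, 10 and 11 had 1274, 1708 and 1881 reads.

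Dmd, the dystrophin gene, hosted 7. In its muscle transcript, intron 6 had 21 and 73 reads over 108469 nucleotides, intron 7 had 16 and 61 over 137316, intron 44 had 10 and 13 over 249539 and intron 51 had 17 and 44 over 57507. The other 3, near the 3′ end, were matched in a shorter non-coding transcript of 16 introns, with 24, 241 and 361 reads. Those near the 3′ end thus included the most read, and 47 other matched junctions of Dmd had a median of 17.0 reads. Dmd stood at 11.97 and 11.04 TPM.

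Fars2, a mitochondrial tRNA synthetase, Cpq, a secreted peptidase, Lpp, an adhesion protein, and Tmem117 hosted 5 each. Fars2 had 738 and 603 reads over introns 4 and 5 but 246 over intron 6. Cpq had 84 and 85 reads over introns 1 and 3 but 311, 517 and 522 over introns 4, 5 and 7. Lpp had 44 to 103 reads per junction. Tmem117 had 28 to 42 over 4 of its junctions and 51 and 60 in R1 and R2 over intron 6.

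Adk, Kcnq1, Babam2, Zfand3, Ptprm, Rabgap1l, Pcdh7, Elmo1, Zbtb20, Rbms3, Foxn3, Ptprg and Prkce were among the 14 genes that hosted 4 each. A further 37 genes hosted 3, among them Msra, Ghr, St3gal3, Snd1, Cux1, Mlip, Celf2, Plcb4, Lama2, Fgf13, Rbfox2, Arhgap26, 2210408F21Rik, Fbxl17, Ssbp2, Exoc4, Atg10, Atrnl1, Ldb2, Esrrg, Dock1, Pard3, Sgcd, Tcf7l2, Ntrk3, Ptprk, Dach1, Etv6, Dennd1a, Apbb2, Bbs9, Slc24a3, Tcf4, Ank2, Dpyd and Pard3b. Several shared an end. The 4 of Pcdh7, a protocadherin, included 3 that ended at the same acceptor after 215626, 215602 and 186712 nucleotides, with 74, 41 and 48 reads, beside 1 over its first intron with 194.

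**Figure D3:**
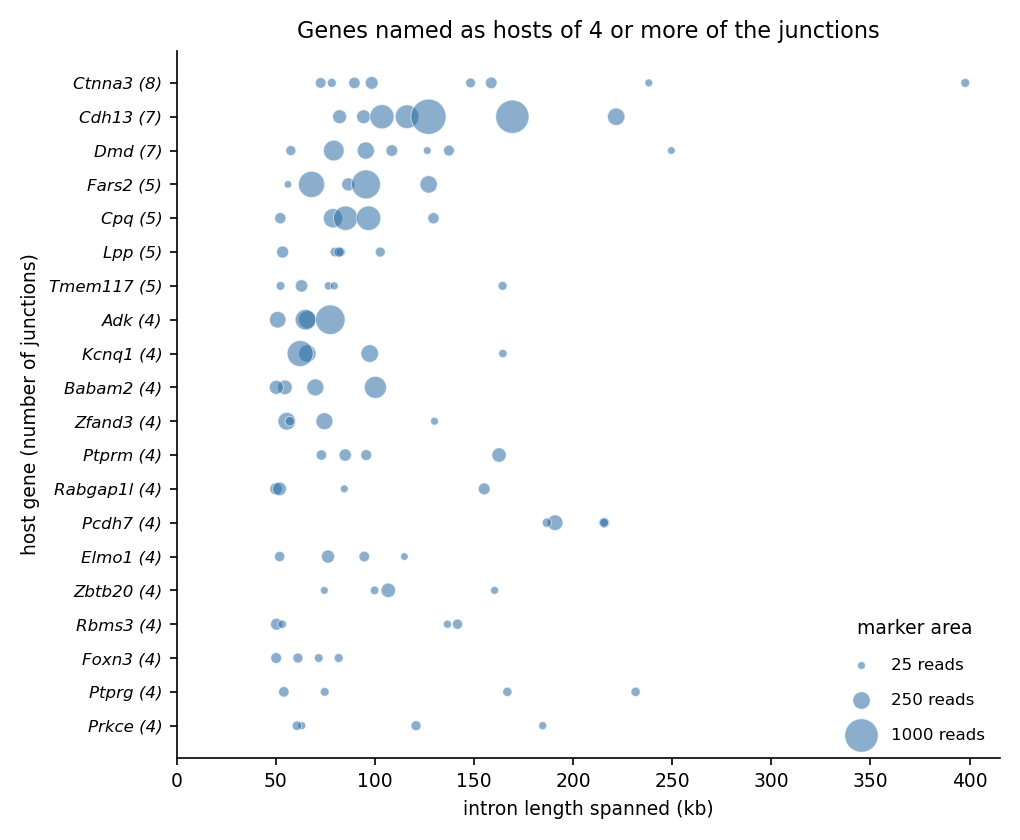
Each marker is 1 long-intron junction of the genes named in the text that host 4 or more, placed by intron length in kb, with marker area growing with its reads. Ctnna3 reaches the longest intron, 397872 nucleotides, and Cdh13 has the most read ones, at 989 and 1110 reads.

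Gene lists for heart biology gave the following counts of hosts, which were not compared between lists. The genes at 1 TPM or more with an annotated intron of at least 50000 nucleotides numbered 17 for ion channels, 19 for adhesion, 7 for the dystrophin complex and 35 for transcription factors. They numbered 30 for signalling, 13 for RNA binding and 13 for metabolism. Of 27 genes for ion channels and calcium handling, 16 hosted 27 junctions with 5363 reads, led by Trdn, Kcnq1, Slc8a1 and Ryr2. Kcnq1, a potassium channel of repolarisation, had 339 and 252 reads over its last intron of 62215 nucleotides and 148 and 107 over intron 11 of 97333. Slc8a1, the sodium-calcium exchanger, had 192 and 280 over an intron of 88670 in its 5′ UTR and 12 and 46 over 202215. Ryr2, the calcium release channel, had 178 and 271 over its first intron of 160396. Cacna1c, the L-type calcium channel, also had a junction over 272276 nucleotides, with 16 and 42 reads.

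Of 28 cell adhesion and junction genes, 14 hosted 42 junctions, led by Cdh13, Ctnna3, Cdh2 and Ptprm. Cdh2, the cadherin of the intercalated disc, had 176 and 258 reads over its second intron of 124009 nucleotides. Ptprm, a receptor phosphatase, had 160, 78, 108 and 68 reads over 4 introns. Of 18 genes for the dystrophin complex and basement membrane, 7 hosted 22 junctions, with Dmd, Lamc1 and Lama2 among those with the most reads. Lamc1, a laminin chain, had 242 and 158 reads over its first intron of 69433 nucleotides, and Lama2, the muscle laminin chain, 123 and 76 over its first of 149322.

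Of 43 genes for transcription factors and chromatin, 27 hosted 43 junctions, led by Nfib, Zbtb16, Zbtb20 and Rxra. Nfib had 165 and 142 reads over 114576 nucleotides, and Rxra, a nuclear receptor, 117 and 106 over its first intron of 59838. The 4 of Zbtb20 lay outside the coding part, 3 in the 5′ UTR and 1 in a non-coding transcript, with 24 to 162 reads. Of 39 genes for kinases, phosphodiesterases and signalling, 21 hosted 41, led by Ghr, Fhod3, Adcy5 and Pde3a. Ghr, the growth hormone receptor, had 287 and 264 reads over 124991 nucleotides in its 5′ UTR. A second donor led to the same acceptor over 124249 nucleotides, with 14 and 18. Adcy5, the main adenylyl cyclase of heart muscle, had 322 and 324 over its first intron of 91565.

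Of 18 RNA-binding and splicing genes, 11 hosted 21 junctions, led by Rbpms, Rbfox1, Mbnl2 and Celf2. Rbpms had 326 and 236 reads over its first intron of 63071 nucleotides. Rbfox1 had 105 and 92 over 154225 and 298 and 65 over 52474. Mbnl2 had 180 and 316, and Celf2 had 202 and 102 over 240765 nucleotides. Of 26 genes on the list for mitochondria and metabolism, 10 hosted 20, led by Cd36, Pcca, Mlip and Fto. This list also holds genes of other roles, Mlip and Exoc4 among them. Pcca, a mitochondrial carboxylase subunit, had 124 and 168 reads over 52351 and 134 and 118 over 63516 nucleotides. Of 20 sarcomere and cytoskeleton genes, 8 stood at 1 TPM or more with an annotated intron of this length, and 4 hosted 5 junctions: Ttn with 60 and 54 reads over 87437 nucleotides, Tln2, Fhl2 and Synpo2. Of 25 neuronal genes known for long introns, 1 did, Lsamp, and none of the 25 both stood at 1 TPM or more and had an annotated intron of this length.

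The split of reads between R1 and R2 was not used to choose the junctions and was tested. R1 held 20235685 junction reads and R2 held 14781185. A junction was called different when an exact two-sided binomial test against those totals gave a Benjamini-Hochberg adjusted p below 0.05 over all 97337 junctions, with a fold of 2 or more. The test compares 2 sets of reads, not conditions, and has no replicate check. It called 355 long-intron junctions (23.5%), against 21.0% of all junctions tested. Higher in R2 were 246 (16.3%, against 16.5%) and higher in R1 were 109 (7.22%, against 4.49%). The share higher in R2 was thus near the background. At least 107 of the long-intron junctions, all without a host gene, shared an end and the same numbers of reads with another. Some calls may therefore count the same reads again. The median log2 ratio of R2 to R1 over all tested junctions was 0.32. With that median as the zero point 292 long-intron junctions were called, 137 higher in R2 and 155 higher in R1. That was 19.4%, against 17.2% of all junctions tested, of which 8162 were higher in R2 and 8586 in R1, so the majority direction turned with the scaling in all junctions alike. With no limit on the fold the order of the shares turned, at 33.4% of long-intron junctions against 38.9% of all. Among junctions with at least 50 reads it was 23.5% against 19.6%. Of the 919 with a host gene 170 (18.5%) were called, against 20.7% of all junctions with A=1. These were 134 higher in R2 and 36 higher in R1. From the median it was 134 junctions (14.6%, against 17.2% of all tested), 71 higher in R2 and 63 higher in R1.

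Among those with a host gene, the highest in R1 relative to R2 included those in Cdh23, Rffl, Fam107b, Btbd11 and Fam129a. These 5 had 19 to 24 reads in R1 and 2 or 3 in R2. Cdh23, a cadherin, had 24 and 2 over 52331 nucleotides (log2 ratio -3.13, adjusted p = 0.00124 by the exact binomial test). The highest in R2 included those in Rarb, Sgcd, Fam171a1, Pde1c and Rgs6. Rarb, a retinoic acid receptor, had 3 reads in R1 and 32 in R2 (log2 ratio 3.87, adjusted p = 4.01e-08 by the exact binomial test). Sgcd, a sarcoglycan of the dystrophin complex, had 4 and 37 over 160052 nucleotides (log2 ratio 3.66, adjusted p = 5.57e-09 by the same exact test), and its other 2 junctions were called in the same direction. Fam171a1, Pde1c and Rgs6 had 3 reads each in R1 and 19 to 22 in R2.

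Other well-read junctions were called too. App had 857 and 310 reads over its first intron (log2 ratio -1.01, adjusted p = 9.82e-27, exact binomial test), whereas its next 2 introns had 513 and 520 and then 721 and 660. Rbfox1 had 298 and 65 over 52474 nucleotides, whereas its other long intron had 105 and 92. Both Cd36 junctions and that of Trdn were higher in R2, and the first intron of Trdn had a log2 ratio of 1.01. Of the 8 Ctnna3 junctions 6 were called, all higher in R2. With the median log2 ratio as the zero point, App and Rbfox1 stayed past 2-fold, while Trdn, both Cd36 junctions and 2 of the 6 in Ctnna3 fell below it.

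Among the 919 junctions with a host gene, the split moved with the place of the intron and with base composition. First introns of the transcript of highest TPM had a median log2 ratio of 0.13 and 26 of 384 were called higher in R1 (6.77%). Later introns had 0.45 and 10 of 535 (1.87%). Higher in R2 were 37 (9.64%) and 97 (18.1%). Over all junctions tested, 4.49% were called higher in R1 and 16.5% higher in R2. The 60 nucleotides around the exon join had a higher median GC content for first than for later introns. Below 40% GC the median log2 ratio was 0.98 (n = 32), at 40 to 50% 0.64 (n = 274), at 50 to 60% 0.32 (n = 431) and above that -0.21 (n = 182). Across the 919 junctions GC content and log2 ratio had a Pearson r of -0.37 and a Spearman rho of -0.37, with points that share genes and both sets of reads. The part of base composition in the calls of single junctions was not tested. Shorter junctions were not divided by place or GC content, so the pattern may not be particular to long introns.

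**Figure D4:**
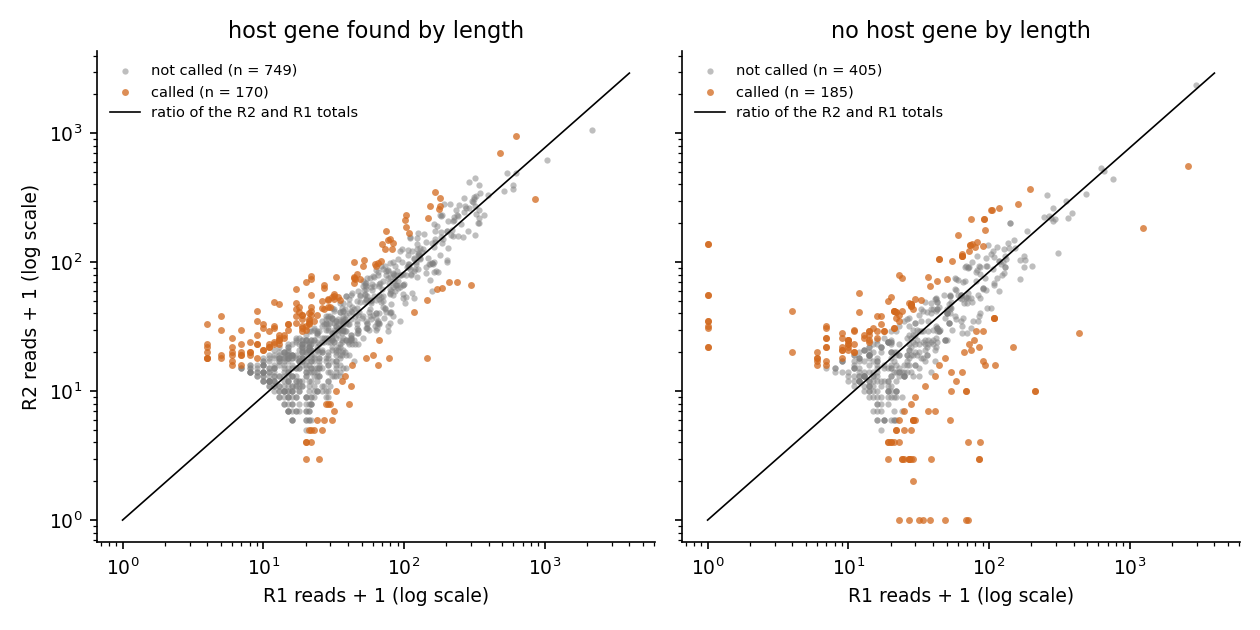
Reads of each long-intron junction in R1 and R2 (each plus 1, log scales), for the 919 with a host gene (left) and the 590 without (right), with called junctions in orange and a line at the ratio of the totals. At the left no point has 0 reads on either side, and at the right 18 have.

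The host genes were also compared between the 2 libraries. A gene was called when the exact binomial test of its rounded counts, given TMM-scaled sizes, gave an adjusted p below 0.05, with a fold of 2 or more. Of 655 host genes 16 (2.44%) were called, against 11.8% of 16145 genes. Of these, 8 were higher in replicate 2 (1.22%, against 8.21%) and 8 higher in replicate 1 (1.22%, against 3.57%). Among genes with at least 100 counts it was 2.30% against 6.98%. With no limit on the fold the order turned, at 78.3% of host genes against 67.8% of all, so the lower share holds for differences of 2-fold or more alone. The median log2 ratio of replicate 2 to replicate 1 was -0.19 for hosts and -0.01 for all genes. In bulk tissue, fewer cells of a type and less RNA per cell cannot be told apart. The summed airway epithelium markers, at 0.27 and 1916 TPM, and erythroid markers, at 3496 and 43425 TPM, were higher in replicate 2, and their part in these differences was not tested.

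Acbd6, which binds acyl-CoA, stood at 9.88 and 29.53 TPM, and Acbd6 was 2.38-fold higher in replicate 2. Ntrk3, a neurotrophin receptor, stood at 1.55 and 4.83 TPM, with 219 and 734 counts, and was 2.81-fold higher there (adjusted p = 3.06e-46 by the exact binomial test). Lnx1, Tcf7l1, Aldh1a1, Pcx and Smad6 were also higher in replicate 2, by 2.04-fold to 2.70-fold. Ctnna3 was 2.20-fold higher in replicate 1, with 1381 and 751 counts, and was the only called gene of the lists above. 2610035D17Rik, a non-coding RNA, was 3.52-fold higher in replicate 1, Gm37240 3.28-fold from 44 and 16 counts, and Rnls, Armh4, Rabgap1l, Adamts3 and Serpini1 by 2.01-fold to 2.47-fold.

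**Figure D5:**
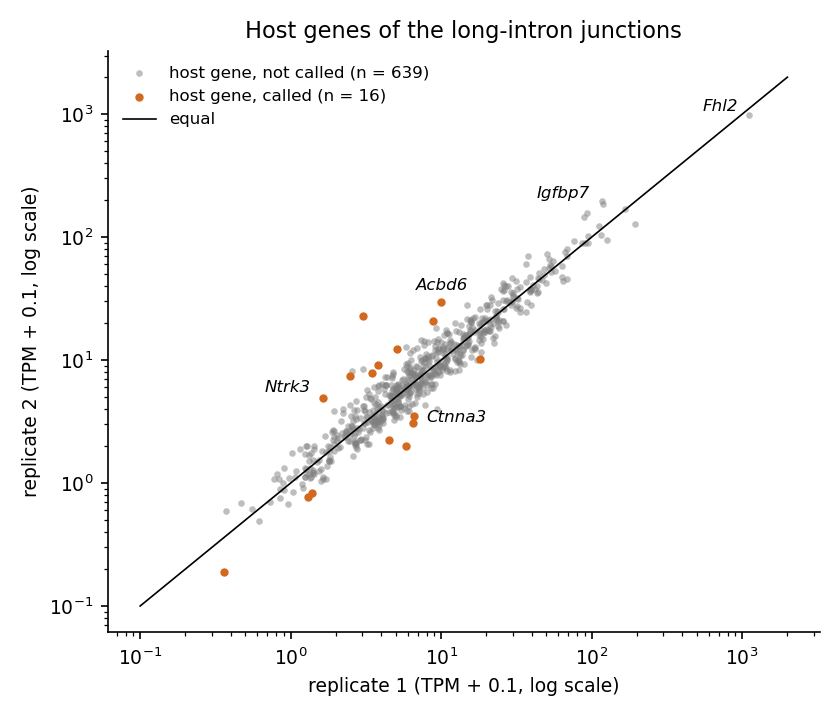
Level of 655 host genes in replicate 1 and replicate 2 (TPM plus 0.1, log scales), with the line of equal levels and the 16 called genes in orange. Most genes lie along the line, with Ntrk3 above it at 1.55 and 4.83 TPM and Ctnna3 below it at 6.51 and 3.42.

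Of the 590 junctions without a host gene by length, 153 had ends within stretches of 2 different genes, 37 within the same gene, 220 had 1 end in a gene and 180 had neither. A stretch is the part of the mm9 table covered by a gene's own matched junctions. Both ends were also ends of shorter junctions in 95 of the 153 between 2 genes (62.1%), against 12 of the 919 with a host gene (1.31%). The share was 21.6% with both ends in the same gene, 37.3% with 1 end in a gene and 32.2% with neither. Calls between R1 and R2 were made for 31.4% of the 153, 24.3% of the 37, 34.1% of the 220 and 29.4% of the 180, against 21.0% of all junctions tested. At least 107 of the 590 shared an end and the same numbers of R1 and R2 reads with another of them. These shares may therefore count some reads more than once, and the junctions are not independent.

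The 153 fell into 59 pairs of genes. C4a and C4b, complement components of neighbouring loci, gave the most, 17 junctions over 79618 to 81653 nucleotides with 24 to 139 reads. C4a stood at 0.16 and 0.51 TPM and C4b at 6.30 and 14.04. 5830417I10Rik and Gon4l gave 15, the complement proteases C1ra and C1rb 9 and C1s2 and C1s1 9. Slc28a2 and Gm14085 gave 8, the drug pumps Abcb1a and Abcb1b 6, and H2-T10 and H2-T22, of the histocompatibility complex, 5. In 28 of the 59 pairs both genes had a mean of at least 1 TPM.

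Selenbp2 and Selenbp1, selenium-binding proteins, gave 8 junctions over 240044 to 243034 nucleotides that held 3775 reads. The most read had 629 and 534 reads. The short junction within Selenbp2 that shares its donor had 991 reads, and the one within Selenbp1 that shares its acceptor had 1770, both over introns of 200 nucleotides. Selenbp2 stood at 2.38 and 2.18 TPM and Selenbp1 at 78.01 and 100.6. The exon letters of the 2 genes around that short intron, printed above, are the same.

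The same comparison was made for 89 junctions between 2 genes where both short junctions could be matched to transcripts, over 60 nucleotides around the exon join. The genes were identical there in 54, differed at 1 or 2 letters in 19, at 3 to 9 in 10 and at 10 or more in 6. For most of them the letters beside the join did not tell the genes apart, and the assignment of these reads to a long junction is uncertain. Of the 590 junctions, 107 shared an end, the same numbers of R1 and R2 reads and the same second whole number with another of them. None of the 919 did. That second number is deposited per junction without a definition, and junctions that differed in it alone were not counted.

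They were also crowded. The 9 fullest windows of 1000000 nucleotides held 234 of the 590 (39.7%). The window on chromosome 12 from 56000001 held 42, around Srp54a, which encodes a subunit of the signal recognition particle, and Srp54c. There 2 junctions shared the donor after 56201051 and had 72 reads in R1 and 136 in R2 each, one over 76336 nucleotides and the other over 151580. The windows on chromosome 14 from 26000001, around Anxa11, and on chromosome 17 from 6000001, around Tmem181a, held 35 and 34. The window on chromosome 17 from 34000001 held 31, around C4a and Tnxb.

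The longest and the most read of all junctions were in this group. The longest spanned 642837 nucleotides at chr4:42024900-42667736, with 21 and 11 reads, and both its ends were also ends of shorter junctions. At chr3:63818307-64408385, starting in Gmps, 79 and 130 reads crossed 590079 nucleotides, and a second junction from Gmps had 13 and 18 over 590074. The donor of the former also led over 438250 nucleotides, with 81 and 143 reads. That of the latter also led over 444396, with 13 and 18. Which acceptor these reads belong to was not tested. The junctions of 544981 and 529593 nucleotides had 44 and 30 reads in all. Those of 466572, 465705 and 456933 had 33, 48 and 186. Among the 10 longest of all, Kcnd2 was the only one with a host gene. The most read, chr12:34505011-34647728 on the minus strand, had 2954 reads in R1 and 2342 in R2 over 142718 nucleotides, with A=0 and C=0. Neither end lay in the stretch of a gene, which does not exclude genes without enough matched junctions. Among junctions without a host gene it was followed by chr4:121870932-122132563 with 2598 and 559 reads and chr6:30479971-30688254 with 1248 and 183, both called higher in R1, and chr10:59190156-59498998 with 762 and 439. All 4 had A=0 and C=0 and lay on the minus strand. The second whole number deposited for them was 14, 238, 121 and 61 in the same order. Divided by the reads, that number had a median of 0.381 over long-intron junctions with A=0 and C=0. With A=1 and C=1 the median was 0.630. It is not defined, so what it says of the support of these junctions was not tested.

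All 18 long-intron junctions with 0 reads on one side, which allows up to 3 reads there, were in this group. With 0 in R2, the most read had 70 reads at chr11:119073004-119217085, 68 at chr7:27624064-27734668 and 48 at chr7:27622271-27732970, the last 2 starting in Cyp2a5, a cytochrome P450. They were followed by 37 from Slc28a2 to Gm14085 and by 33 and 31 elsewhere. With 0 in R1, 2 junctions that share a donor in D2hgdh on chromosome 1 had 137 reads each, and 4 more, within the same window from 95000001, had 55, 55, 34 and 34. Those with 55 shared an end and equal numbers, as did those with 34. Those with 137 differed in the second whole number alone, at 83 and 82. The same reads may thus be counted more than once. The share of junctions with 0 reads on one side over all junctions tested is not given here.

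Among the 37 with both ends in the same gene, Msi2, an RNA-binding protein, had 93 and 176 reads over 170102 nucleotides, the most of these, and had A=1. Lrrc20 had 107 and 68 over 51170 and Pkp4, a plakophilin of cell contacts, 94 and 60 over 51357. In Adk, an intron of 77440 nucleotides had 16 and 37 reads, 1 nucleotide shorter than the matched intron of 77441 with 318 and 452.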

How the data were processed

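Junctions came from 1 table on mm9 that pools 2 sets of reads, R1 and R2, and names no library for either. The authors' count per junction is of whole reads, and R1 and R2 in the junction name add to it in every row, from the values. A deposited fraction from 0 to 1 and a second whole number per junction, both deposited without a definition, chose no junction. The second number entered the count of junctions with a shared end and equal numbers. Gene tables give the authors' expected counts and the authors' TPM per library on mm10 with GENCODE M4, per the file headers and accompanying notes. Aligner and quantifier: not given in the sources used here. Contigs were not used.

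Introns of GENCODE M21 (GRCm38) were matched by exact length, chromosome and strand to 1 gene, and no coordinate was converted. Stretches needed 2 anchors, each a matched intron of at least 1000 nucleotides or 2 introns around an exon of at most 2000. For genes with at least 20 counts, expected counts were rounded. TMM came from edgeR 4.0.16 in R 4.3.3. Tests used Python 3.11.15 and scipy 1.17.1. The tests cover counting error only.

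The tests were tested on simulated counts with counting error alone, and the matching by length on made-up genes. These checks do not cover other variation between libraries.

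The junctions and gene lists were chosen with earlier results of these data known. Named were the 10 most read and 10 longest junctions, up to 4 hosts per list with most reads, hosts of 3 or more, and up to 6 called junctions per direction. After the values were seen, this was also applied apart to junctions with and without a host, and other genes without such a place, the GC classes and the windows were chosen. Alternatives were other limits on length and reads, matching rules, scalings, folds and single libraries. Some genes and junctions that this rule names are not reported here.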

Additional observations from a re-analysis of the deposited data

How the results depend on the processing

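With other limits the number of long-intron junctions was 578 at 100000 nucleotides or more, 4196 at 20000 or more, 2390 with at least 10 reads and 793 with at least 50, in place of 1509. With A=1 alone, chosen after seeing the data, it was 904, and the share with a host gene was 97.5%. Calls between R1 and R2 numbered 186 with at least 50 reads (23.5%, against 19.6% of all junctions) and 170 among junctions with a host gene (18.5%), the latter chosen after seeing the data, in place of 355. Without the fold limit, 513 host genes were called in place of 16 (78.3%, against 67.8% of all genes). First introns were 41.8% when only the transcript of highest TPM was taken. The median level of host genes was 6.72 to 7.30 TPM with 1 replicate left out. The other alternatives moved each value by less than 1.5 times: 1210 junctions with at least 10 reads in each of R1 and R2, shares with a host of 60.4% and 61.4%, 292 junctions called from the median (19.4%, against 17.2% of all) and 504 without the fold limit (33.4%, against 38.9%), and 13 to 15 host genes called (1.98% to 2.30%, against 6.98% to 12.5%). No paired analysis was possible because there is 1 group of 2 libraries. Depth limits junctions near 20 reads. Most annotated introns of this length in genes below 1 TPM had no junction with 20 reads, and the part of depth in this was not tested. The meaning of A and C, and the library behind R1 and R2, limit what these counts can say.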

Other observations

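Among the host genes, 7 were not annotated as protein-coding, and 10 junctions lay in them. 2210408F21Rik, a processed transcript at 15.04 and 13.18 TPM, hosted 3, with 63 and 33, 45 and 32, and 28 and 29 reads in R1 and R2. Mir99ahg, the host transcript of a microRNA cluster, hosted 2 over 54311 and 65100 nucleotides, with 44 and 73 and with 13 and 19 reads. Airn, the antisense RNA at the imprinted Igf2r locus, had 20 and 39 reads over 73071 nucleotides at 9.20 and 10.26 TPM. Gm31013 had 56 and 50 reads over an intron that takes up 98.8% of the gene. 2610035D17Rik had 6 and 29 reads over 105566 nucleotides, Gm1976 had 12 and 10, and Gm38399 had 11 and 10.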
